A study of Mus musculus with 30 samples.

Results

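The genes described here are 10 genes of leukocyte recruitment and of feedback on the transcription factor NF-kB, followed across all 8 groups of AML12 mouse hepatocytes. They are the adhesion receptors Vcam1 and Icam1, the chemokines Ccl2, Ccl7, Cxcl1 and Cxcl10, the feedback inhibitors Nfkbia and Tnfaip3, the secreted protein Lcn2 and the cytokine Il6. They were taken by symbol, after the Ensembl identifiers in the count tables had been matched to mouse symbols, and this set of genes was chosen with earlier results of these data known. All 10 were found among 49089 identifiers. Of these 10, 9 were among the 11368 genes that passed the filter on low counts. Il6 did not pass, with 1 read in the 30 libraries together.

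NF-kB is a family of dimeric transcription factors held in the cytoplasm by IkB proteins. Inflammatory signals such as TNF, interleukin 1 or bacterial products activate the IkB kinase, IkB is degraded, and the freed dimers enter the nucleus and switch on chemokines, adhesion receptors and their own inhibitors. In the liver these products draw monocytes, neutrophils and lymphocytes into the tissue, and hepatocytes are among the cells that make them.

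The study sequenced 30 RNA libraries of AML12 cells, a line of mouse hepatocytes, to see how the forkhead transcription factors FoxK1 and FoxK2 shape gene expression with and without insulin. Control cells received a non-silencing siRNA, FoxK1 KD and FoxK2 KD cells were depleted of 1 factor by siRNA, and DKD cells were depleted of both. All cultures were kept without serum overnight, so the basal groups are starved cells, and the insulin groups then received 100 nM insulin for 6 h. The labels give basal samples a treatment time of 0, while the study describes a mock treatment (vehicle) or insulin for 6 h. By that description basal and insulin cells were harvested at the same hour. By the labels alone, insulin cannot be told apart from 6 more hours of culture. There were 4 replicates per group, and 3 in the insulin-treated Control and DKD groups. AML12 is a hepatocyte line immortalized through a TGF-alpha transgene and grown without other liver cells, and each knockdown lowered its target without removing it. Relative to Control, the 8 tests of a targeted transcript gave fitted log2 differences between -0.62 and -1.57. The first was Foxk1 in DKD cells after insulin, the second Foxk2 in basal FoxK2 KD cells. The other transcript was not unchanged. By edgeR, Foxk2 was lower in basal FoxK1 KD cells (-0.26, adjusted p = 0.0487), and Foxk1 in basal FoxK2 KD cells differed by -0.23 (adjusted p = 0.441). With insulin in Control cells Foxk1 fell (-0.62, adjusted p = 3.70e-04), and the Foxk2 change was 0.22 (adjusted p = 0.0739).

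Between 2141460 and 5668270 reads per library were counted on genes, and mitochondrial genes took 0.989% to 2.43% of them. Levels are given as CPM, the counts scaled to a TMM-normalized library size. Control basal replicate 1 stood farthest from its own group, at a root-mean-square log2 distance of 0.518 where the other 29 libraries lay between 0.304 and 0.423. No member lost a call when that library was left out. A division of the libraries into 2 sets, made after the values were seen and named by no label, was also followed. The first held the 12 basal libraries of Control, FoxK1 KD and FoxK2 KD cells, and the other held the 18 libraries of basal DKD cells and of all insulin groups. Other divisions were not counted, and no label says whether the sets were prepared apart. Without any overlap between the sets, 83 genes (0.73% of those tested) were lower and 52 (0.457%) were higher in the 18, and 10 of those 52 were pseudogenes. Pseudogenes made up 0 of the 83 lower genes and 251 of all 11368 tested genes. Basal DKD against basal Control, the insulin effects in Control, FoxK1 KD and FoxK2 KD cells, and the DKD interaction (its insulin effect minus that of Control) lie across this line, so the set and the treatment cannot be told apart there. FoxK1 KD and FoxK2 KD against Control at basal, insulin in DKD cells, and all knockdowns against Control after insulin lie within 1 set.

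Defining markers of other liver cells were checked in the same libraries. Summed endothelial markers (Pecam1, Cdh5, Kdr, Stab2 and Tek) reached at most 0.706 CPM and summed stellate cell and fibroblast markers at most 1.39 CPM in any library. The macrophage markers Adgre1 and C1qa had no read in any library, while Cd14, the lipopolysaccharide co-receptor, which hepatocytes can also make, carried most of a macrophage sum of 78.2 to 145 CPM. The rest of that list was not empty. Csf1r was at 1.89 to 21.4 CPM, Ptprc at 0.291 to 2.78 and Cd68 at 0 to 2.96. Clec4f had 1 read and Lyz2 had 6 in all libraries together. The cholangiocyte sum (Krt19, Krt7, Epcam, Sox9) was 534 to 1073 CPM, with Epcam at 0. Among hepatocyte markers, Hnf4a was at 89.6 to 152 CPM and Alb at only 2.50 to 65.2 CPM. In bulk libraries such as these, fewer cells of a type and less RNA per cell cannot be told apart.

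The members differed widely in level. In basal Control cells, Ccl2, the monocyte chemoattractant MCP-1, was counted at 1495 ± 88.0 CPM (SD, n = 4), and Vcam1, the receptor for the leukocyte integrin VLA-4, at 296 ± 37.0 CPM (SD, n = 4). Tnfaip3 was at 166 ± 15.2 CPM and Icam1, the receptor for the integrins LFA-1 and Mac-1, at 105 ± 10.6 CPM. Cxcl1 (79.5 ± 4.35 CPM), Nfkbia (63.5 ± 3.89), Ccl7 (29.4 ± 5.45), Lcn2 (20.6 ± 9.87) and Cxcl10 (7.54 ± 1.40) made up the rest. Between genes, levels compare only per length. Per kilobase of the longest protein-coding transcript, Ccl2 stood highest at 1838.5 CPM per kb, with Vcam1 and Cxcl1 at 85.3 and 83.4, Icam1, Nfkbia, Tnfaip3 and Ccl7 between 36.7 and 41.3, Lcn2 at 22.5 and Cxcl10 at 5.57. TNF and interleukin 1 beta, the usual inducers of these genes, had no read in any library (Tnf and Il1b, 0 counts in all 30).

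**Figure D1:**
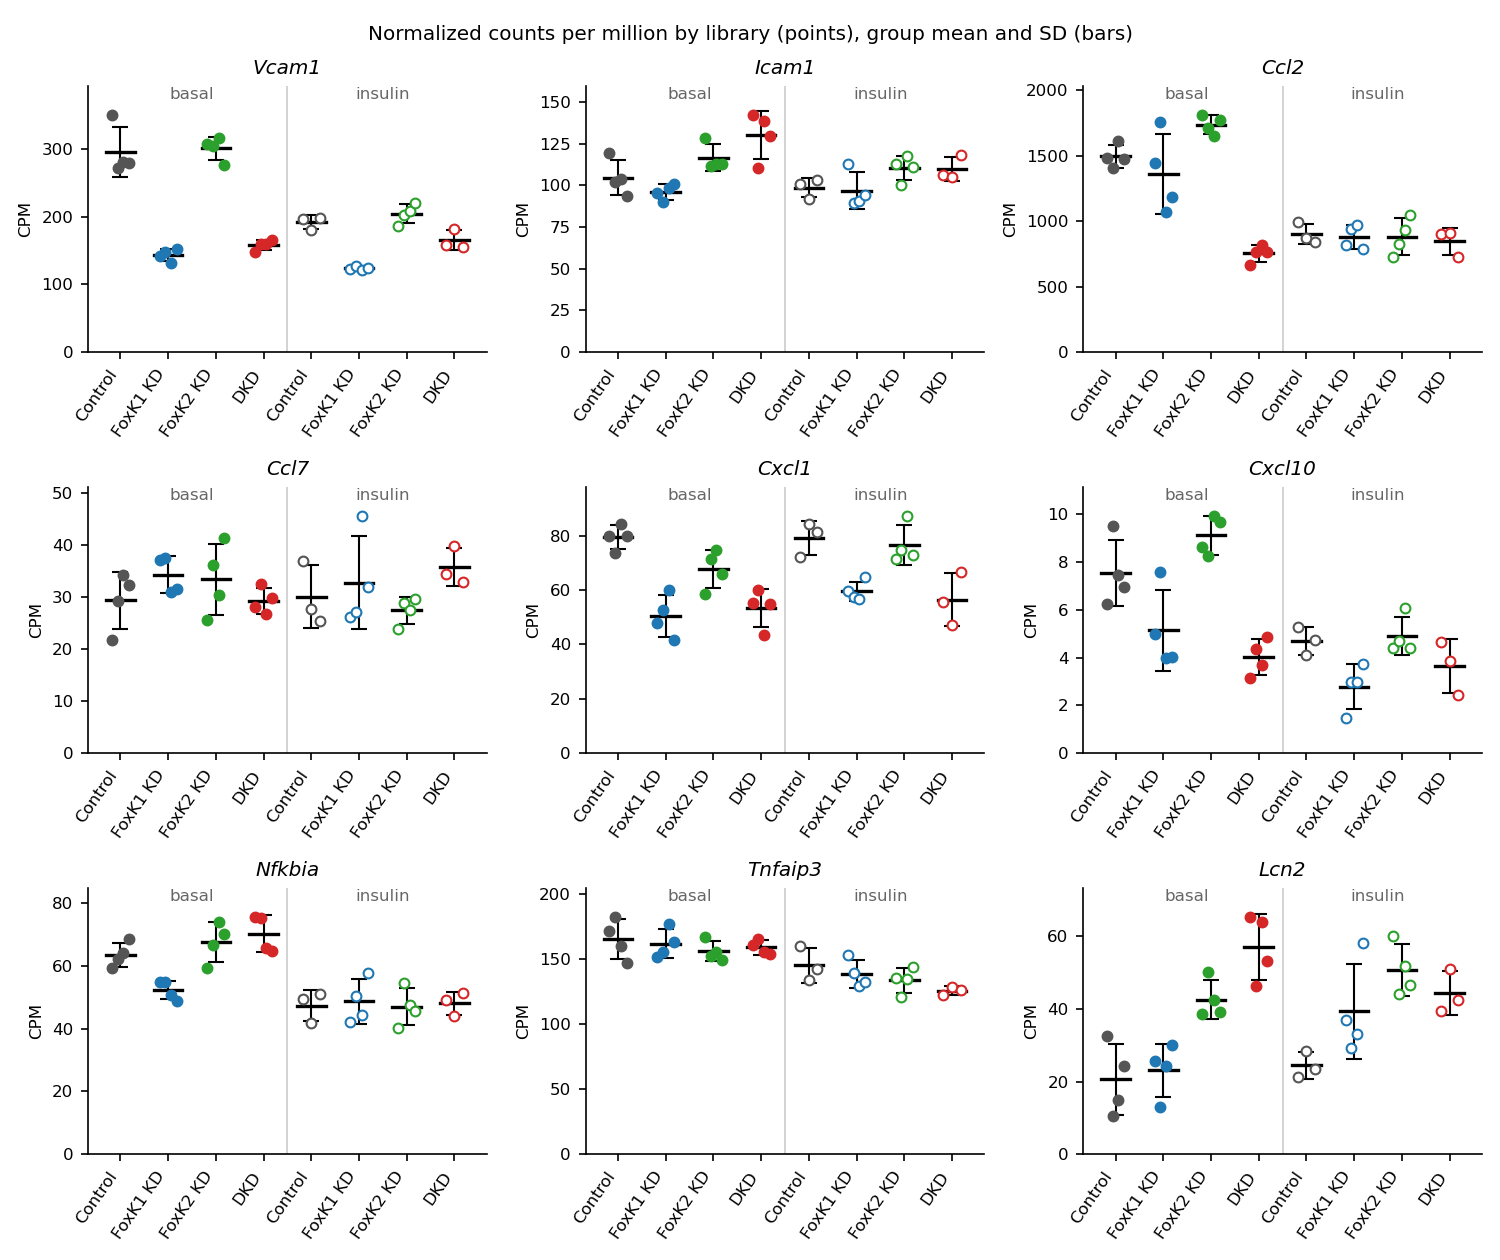
CPM on the vertical axis for the 9 members past the filter, with 1 point per library, basal groups filled and insulin groups open, and black bars for the group mean and SD. Vcam1 is low in FoxK1 KD cells and in basal DKD cells, and Ccl2 is low in basal DKD cells and after insulin in every genotype. Lcn2 is high in FoxK2 KD and DKD cells, and after insulin its FoxK1 KD points also lie above those of Control.

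Promoter sequence is shown for 4 members because chemokines, adhesion receptors and inhibitors of this kind are known targets of NF-kB, and their levels here moved differently. RefSeq windows of 250 bases before the transcription start (GRCm38.p6) were available for 7 of the 10 members. Each was searched on both strands for 3 motifs. They were the kappa-B consensus of NF-kB (GGGRNNYYCC), the forkhead core TAAACA and the interferon response pair, GAAA followed after any 2 bases by GAAA. In the consensus R is A or G, Y is C or T, and N is any base. Capitals mark matches to the kappa-B consensus or to TAAACA. The windows are chr5:90890995-90891244 (+ strand) for Cxcl1, chr5:92348890-92349139 (- strand) for Cxcl10, chr12:55492648-55492897 (- strand) for Nfkbia and chr9:21015690-21015939 (+ strand) for Icam1, each printed 5′ to 3′ along the gene.
Cxcl1: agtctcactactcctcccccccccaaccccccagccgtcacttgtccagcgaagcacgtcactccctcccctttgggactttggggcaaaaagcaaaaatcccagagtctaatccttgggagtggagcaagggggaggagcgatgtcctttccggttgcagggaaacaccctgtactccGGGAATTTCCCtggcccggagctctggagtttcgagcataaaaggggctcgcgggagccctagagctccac
Cxcl10: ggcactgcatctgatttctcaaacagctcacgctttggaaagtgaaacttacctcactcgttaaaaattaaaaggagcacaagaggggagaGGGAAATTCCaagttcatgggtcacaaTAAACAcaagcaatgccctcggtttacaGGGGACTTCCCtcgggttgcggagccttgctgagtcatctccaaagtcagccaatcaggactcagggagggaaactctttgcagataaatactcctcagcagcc
Nfkbia: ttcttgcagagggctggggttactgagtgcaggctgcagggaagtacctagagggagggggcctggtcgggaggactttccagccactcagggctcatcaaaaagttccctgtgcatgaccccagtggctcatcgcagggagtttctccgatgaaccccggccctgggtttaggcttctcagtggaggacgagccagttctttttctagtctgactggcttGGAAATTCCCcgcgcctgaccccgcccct
Icam1: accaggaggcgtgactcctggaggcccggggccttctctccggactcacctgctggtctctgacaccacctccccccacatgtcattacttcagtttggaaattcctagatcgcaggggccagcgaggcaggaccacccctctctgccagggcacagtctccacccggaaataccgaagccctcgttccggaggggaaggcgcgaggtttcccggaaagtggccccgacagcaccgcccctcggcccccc
The Cxcl1 window held 1 run that matched kappa-B on both strands, from -71 to -61 before the start. Cxcl10 held a match from -159 to -150, overlapping matches from -104 to -94, a TAAACA from -132 to -127 and the GAAA pair from -213 to -204. Nfkbia held a kappa-B match from -29 to -20, and the Icam1 window held none of the 3 motifs, which says only that these letters are not in it. Of the members not printed, Tnfaip3 (at 1 of its 2 starts) and Il6 held kappa-B matches. Thus 5 of 7 members did at any start, against 7.25% of 32851 single windows of the same length. Genes of this kind are known targets of NF-kB, so this share is no result of these libraries. TAAACA was found for 2 members (Cxcl10 and the other start of Tnfaip3) and in 12% of all windows, and the GAAA pair for Cxcl10 alone among the members and in 2.98% of windows. A match is only a run of letters, and no binding was measured in these libraries.

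In basal cells, Vcam1 and Cxcl1 fell in FoxK1 KD cells and no member rose. Of the 10 members, 0 were called higher and 2 lower by the quasi-likelihood test of edgeR. A call is a Benjamini-Hochberg adjusted p below 0.05, and 8.09% of all tested genes were called in this comparison. In FoxK2 KD cells Lcn2, an acute-phase protein that captures iron-binding siderophores, was the only called member and rose, where 0.378% of all genes were called. In DKD cells 2 members were higher (Lcn2 and Icam1) and 4 lower (Vcam1, Ccl2, Cxcl1 and Cxcl10), against a background of 21.1% of genes called. The median log2 difference of the 9 tested members was -0.13 in FoxK1 KD, 0.16 in FoxK2 KD and -0.06 in DKD cells, where the median of all genes was -0.012, -0.0088 and -0.00056. The 3 comparisons share the same Control libraries. Differences of single genes are given as log2 fold changes ± SE.

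**Figure D2:**
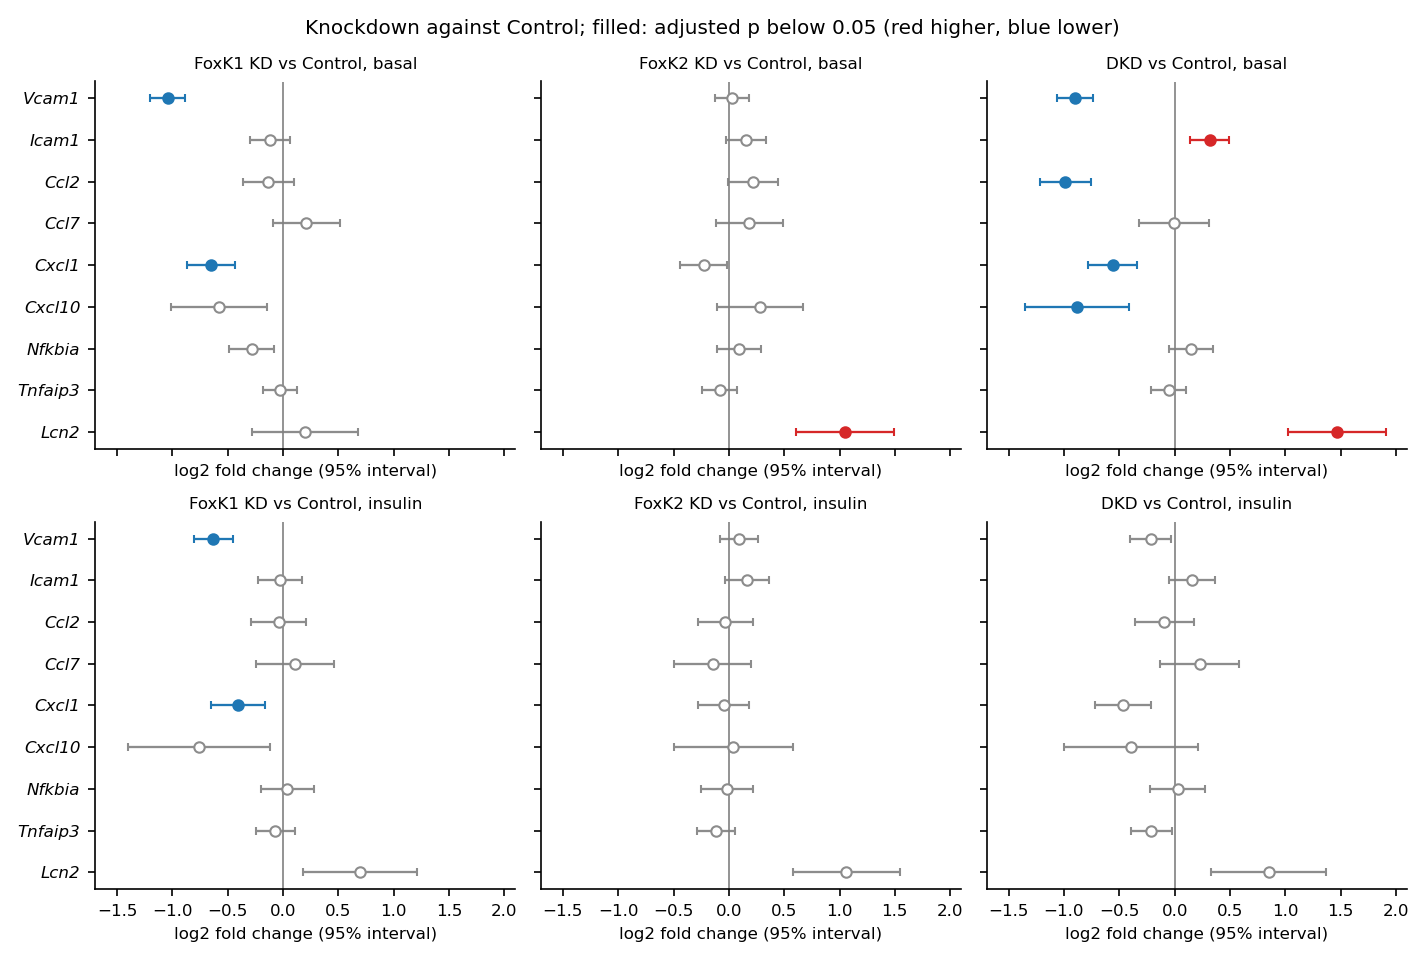
Log2 fold change of each member for a knockdown against Control (horizontal axis, points with 95% intervals), at basal in the upper panels and after insulin in the lower panels. Filled points are calls, red higher and blue lower, and open grey points are not. Vcam1 and Cxcl1 lie to the left in FoxK1 KD cells at basal and after insulin, and Lcn2 lies to the right in FoxK2 KD and DKD cells at basal.

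In every genotype some members were called lower after insulin, where 16.3% to 31.6% of all genes were called in either direction. Whether the members exceeded these shares was not tested. In Control cells 0 were higher and 4 lower (Vcam1, Ccl2, Cxcl10 and Nfkbia), with 25.4% of all genes called. In FoxK1 KD cells 1 was higher (Lcn2) and 4 lower (Vcam1, Ccl2, Cxcl10 and Tnfaip3), with 31.6% called. In FoxK2 KD cells 0 were higher and 5 lower (Vcam1, Ccl2, Cxcl10, Nfkbia and Tnfaip3), with 28.1% called. In DKD cells only Nfkbia and Tnfaip3 were lower and none was higher, with 16.3% called. The members' median log2 change was -0.19 in Control, -0.10 in FoxK1 KD, -0.30 in FoxK2 KD and -0.18 in DKD cells, against medians of all genes from -0.01 to 0.01. Whether an effect differed between genotypes was tested by the interaction, which called Vcam1 and Ccl2 for DKD (1.54% of all genes called) and no member for FoxK1 KD or FoxK2 KD (0% of genes called in either).

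**Figure D3:**
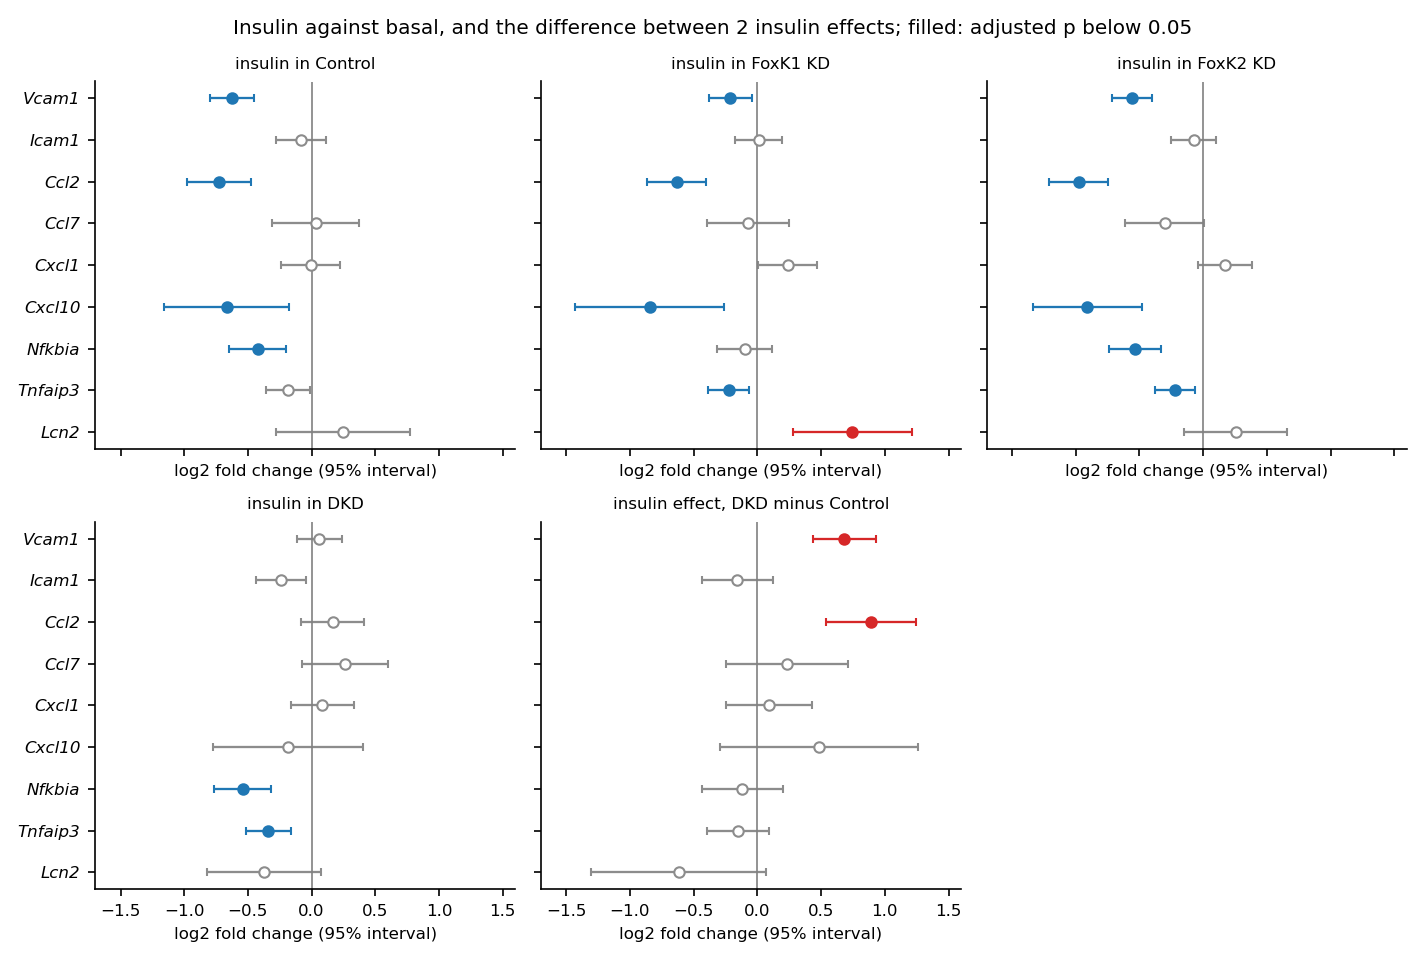
Log2 change with insulin for each member in the 4 genotypes, and in the last panel the difference between the insulin effects of DKD and Control cells (horizontal axes, points with 95% intervals, filled where called). Ccl2 and Vcam1 fall in Control, FoxK1 KD and FoxK2 KD cells and stand near 0 in DKD cells, while Nfkbia and Tnfaip3 fall in DKD cells.

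Vcam1 (ENSMUSG00000027962.14, chr3:116109949-116129688, - strand, GRCm38) was the member most strongly lowered in basal FoxK1 KD cells. In basal cells its 4 Control libraries were at 351, 271, 282 and 280.0 CPM and its FoxK1 KD libraries at 143, 148, 132 and 152. FoxK2 KD libraries were at 307, 304, 317 and 276 and DKD libraries at 148, 159.7, 160.1 and 166. Every FoxK1 KD and DKD library lay below every Control library, FoxK2 KD and Control overlapped, and FoxK1 KD and DKD overlapped each other. Vcam1 fell by 51.5% in FoxK1 KD cells (log2 -1.04 ± 0.08, adjusted p = 3.93e-11) and by 46.4% in DKD cells (log2 -0.90 ± 0.08, adjusted p = 1.44e-09). Without Control basal replicate 1, the highest library, the log2 values were -0.95 and -0.81 and both calls stayed. The FoxK2 KD difference was 0.03 ± 0.08 (SE, adjusted p = 0.930), with a 95% interval from -0.13 to 0.18.

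After insulin, Vcam1 stood at 196, 179.8 and 199 CPM in Control, 123, 127, 122 and 124 in FoxK1 KD, 187, 203, 208 and 220.2 in FoxK2 KD and 159, 183 and 155 in DKD cells. The FoxK1 KD libraries were again below all Control libraries, and with insulin also below all of their own basal libraries, which made them the lowest group of the 8. DKD overlapped Control. FoxK1 KD against Control after insulin was -0.63 ± 0.09, adjusted p = 1.74e-05, and DKD against Control was -0.22 ± 0.09 (SE, adjusted p = 0.289). Insulin lowered Vcam1 in Control (-0.63 ± 0.09, adjusted p = 1.04e-06) and in FoxK2 KD cells (-0.56 ± 0.08, adjusted p = 1.25e-06), in both without overlap with the basal libraries. In FoxK1 KD cells the change was -0.21 ± 0.08, adjusted p = 0.0476. That call was lost in 7 of the 8 fits that left out 1 library of these groups, and with DESeq2, limma-voom, no filter or the replicate block, with adjusted p from 0.0508 to 0.0882. The change was 0.00075 once trends with GC content and length were taken out. In DKD cells it was 0.06 ± 0.09 (SE, adjusted p = 0.702). The insulin effect in DKD minus that in Control was 0.68 ± 0.12, adjusted p = 0.00153, and all 14 fits without 1 library kept this call, while the same difference for FoxK1 KD was 0.41 ± 0.12 (SE, adjusted p = 0.172). Vcam1 shares exon bases with Gm43109, a gene on the opposite strand that had 2 reads in all libraries together. Cxcl10 shares them with Art3, also with 2 reads, and Icam1 with Gm47079, which is not among the counted identifiers. As the strand setting of the counting is not given, reads of these genes and of their partners cannot be told apart.

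Markers of hepatocytes and of other cells moved in several of these comparisons. The macrophage sum was 78.2 to 97.9 CPM in basal FoxK1 KD cells against 106 to 145 in Control, without overlap, and there Cd14 fell (-0.62 ± 0.11, adjusted p = 4.16e-04) while Csf1r rose (1.01 ± 0.16, adjusted p = 1.43e-04). The cholangiocyte sum was 534 to 609.8 CPM against 639 to 1073, also without overlap, with Krt19 and Sox9 lower (log2 -0.70 and -0.40). In basal DKD cells the hepatocyte sum was 2745 to 2824 CPM against 2120 to 2670 in Control, with 3 of 7 tested genes higher and 0 lower. Csf1r (0.79 ± 0.17, adjusted p = 0.00103) and Krt7 (0.74 ± 0.16, adjusted p = 0.00119) rose there and Sox9 fell (-0.45 ± 0.08, adjusted p = 2.14e-04). Mitochondrial genes took 0.989% to 1.26% of the reads in basal DKD cells, 1.32% to 2.13% in basal Control cells and 1.11% to 1.71% in the insulin groups, so basal DKD and Control did not overlap in this share. With insulin Csf1r fell in all genotypes, by 1.70 on the log2 scale in Control, 1.01 in FoxK1 KD, 1.59 in FoxK2 KD and 1.49 in DKD cells. Krt8, a keratin of hepatocytes, rose with insulin in Control (0.67), FoxK1 KD (0.79) and FoxK2 KD cells (0.55). With insulin Sox9 fell in Control (-0.47), Krt19 rose in FoxK1 KD (0.51) and FoxK2 KD cells (0.39), and Ttr rose in FoxK1 KD cells (0.99). Of 7 tested hepatocyte markers, 2 rose and 0 fell with insulin in both Control and FoxK1 KD cells. In FoxK2 KD cells 2 rose and 1 fell, and in DKD cells 0 and 1. Among 3 tested cholangiocyte markers, 0 rose and 1 fell in Control, 1 and 0 in FoxK1 KD, and 1 and 1 in FoxK2 KD. None was called in DKD cells. Of all genes, 25.4%, 31.6%, 28.1% and 16.3% were called in these 4 genotypes. Over the whole lists after insulin, the macrophage sum was 93.7 to 140.5 CPM and the cholangiocyte sum 636 to 869 CPM. The part of these genes in the member results was not tested, and endothelial markers, which accompany Vcam1 in vessels, were at or near 0 in all libraries.

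Icam1 (ENSMUSG00000037405.7, chr9:21015985-21028817, + strand) varied little, with group means from 96.1 to 130.1 CPM. Its basal DKD libraries were at 142, 110.2, 138 and 129 CPM and its Control libraries at 119, 102, 104 and 93.6. The lowest DKD library lay below the highest Control library, so the groups overlapped. Icam1 rose in DKD cells (0.32 ± 0.09, adjusted p = 0.00936), the direction opposite to Vcam1 in the same cells. Without DKD basal replicate 1 the difference was 0.26 (adjusted p = 0.0617), and in a fit of these groups alone the adjusted p was 0.0697. In the other basal comparisons it was -0.12 ± 0.09 (SE, adjusted p = 0.440) in FoxK1 KD and 0.16 ± 0.09 (SE, adjusted p = 0.521) in FoxK2 KD cells. No insulin effect on Icam1 was called, the largest being -0.24 ± 0.10 (SE, adjusted p = 0.0869) in DKD cells, which was called with the replicate block (adjusted p = 0.0495) and without DKD basal replicate 2 (adjusted p = 0.0285).

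Ccl2 (ENSMUSG00000035385.5, chr11:82035571-82037453, + strand) was the member that followed the 2 sets of libraries. Basal Control libraries were at 1484, 1404, 1616 and 1475 CPM, FoxK1 KD at 1442, 1754, 1068 and 1186, FoxK2 KD at 1815, 1714, 1650.1 and 1775 and DKD at 665, 763, 819.9 and 769. Every DKD library was below every library of the other 3 basal groups, and FoxK1 KD libraries were the most spread. Ccl2 fell by 49.6% in DKD cells (log2 -0.99 ± 0.11, adjusted p = 1.96e-07). In FoxK1 KD the difference was -0.13 ± 0.11 (SE, adjusted p = 0.502) and in FoxK2 KD 0.22 ± 0.11 (SE, adjusted p = 0.478).

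After insulin, Ccl2 was at 991, 871 and 843 CPM in Control, 818, 941, 968 and 785 in FoxK1 KD, 727, 824, 931 and 1050.1 in FoxK2 KD and 905, 907 and 724 in DKD cells. The 4 groups overlapped one another and no knockdown differed from Control by the test, with intervals of the log2 difference from -0.29 to 0.21 in FoxK1 KD, -0.28 to 0.22 in FoxK2 KD and -0.36 to 0.17 in DKD cells. Insulin lowered Ccl2 in Control (-0.73 ± 0.12, adjusted p = 3.52e-05), FoxK1 KD (-0.63 ± 0.11, adjusted p = 6.25e-05) and FoxK2 KD cells (-0.98 ± 0.11, adjusted p = 5.77e-08), each without overlap with the basal libraries of that genotype. In DKD cells the change was 0.17 ± 0.12 (SE, adjusted p = 0.391). The insulin effect in DKD minus that in Control was 0.89 ± 0.17, adjusted p = 0.00456, kept in all 14 fits without 1 library. Across the whole series the 12 libraries of the first set lay between 1068.5 and 1815 CPM (median 1550) and the 18 of the other set between 665 and 1050.1 (median 833). Ccl2 was the only member without overlap between the sets, so its DKD and insulin differences cannot be told apart from the set of the library. Vcam1 medians were 278 and 163 CPM and Cxcl10 medians 7.52 and 4.24 CPM in the same sets, both with overlap.

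**Figure D4:**
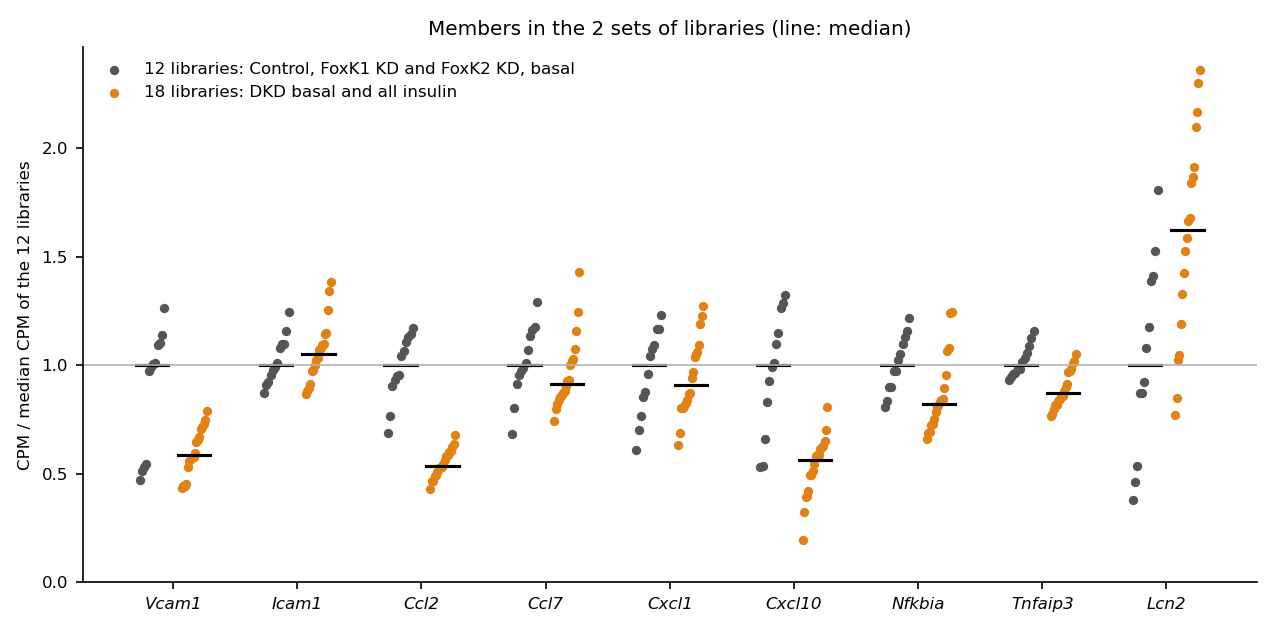
Each library's CPM divided by the median of the 12 basal Control, FoxK1 KD and FoxK2 KD libraries (vertical axis), with 1 point per library, grey for the 12 and orange for the 18 others, and a line at each median. Only for Ccl2 do the grey and orange points not overlap.

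Ccl7 (ENSMUSG00000035373.2, chr11:82045712-82047525, + strand), the monocyte chemokine MCP-3, lies next to Ccl2 on chromosome 11 and did not pass the test in any of the 13 comparisons. Its libraries ranged from 21.8 to 45.7 CPM and its group means from 27.5 to 35.7, with every group overlapping the next in the order of levels. In basal DKD cells, where Ccl2 fell, the Ccl7 difference was -0.01 ± 0.16 (SE, adjusted p = 0.980), with a 95% interval from -0.32 to 0.31. With insulin it was -0.30 ± 0.15 (SE, adjusted p = 0.143) in FoxK2 KD cells. In DKD cells it was 0.26 ± 0.17 (SE, adjusted p = 0.302), and there the insulin libraries, at 34.4, 39.9 and 32.9 CPM, all lay above the basal ones, at 28.1, 32.6, 26.8 and 29.8.

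Cxcl1 (ENSMUSG00000029380.11, chr5:90891241-90893115, + strand), the neutrophil chemokine KC, was called lower in FoxK1 KD cells at basal and after insulin and in basal DKD cells, and no insulin effect on it was called. Basal Control libraries were at 79.95, 73.8, 84.4 and 79.8 CPM, FoxK1 KD at 47.97, 52.5, 59.99 and 41.7, DKD at 55.1, 59.9, 43.5 and 54.9 and FoxK2 KD at 58.7, 71.3, 74.8 and 65.7. All FoxK1 KD and DKD libraries were below all Control libraries, and FoxK2 KD overlapped Control. Cxcl1 fell in FoxK1 KD (-0.65 ± 0.11, adjusted p = 2.09e-04) and DKD cells (-0.56 ± 0.11, adjusted p = 3.62e-04), and the FoxK2 KD difference was -0.23 ± 0.10 (SE, adjusted p = 0.394). After insulin the libraries were at 71.98, 84.1 and 81.4 CPM in Control, 59.5, 57.5, 56.7 and 64.6 in FoxK1 KD, 55.6, 47.2 and 66.5 in DKD and 71.2, 74.8, 87.4 and 72.8 in FoxK2 KD cells. FoxK1 KD and DKD were again below every Control library. The test called the first (-0.41 ± 0.12, adjusted p = 0.0476) and not the second (-0.47 ± 0.13 (SE, adjusted p = 0.0523)), and the call in FoxK1 KD was lost in all 7 fits that left out 1 library, with adjusted p from 0.0526 to 0.120, and also with limma-voom (0.0544) and the replicate block (0.0621). The DKD difference was called with DESeq2, RLE size factors, either other filter, the replicate block or the GC correction, with adjusted p from 0.0243 to 0.0482. Insulin itself gave log2 changes of Cxcl1 from -0.01 in Control to 0.24 in FoxK1 KD cells, none called, although the latter was called with the GC correction (0.30, adjusted p = 0.0459) and without FoxK1 KD basal replicate 3 (adjusted p = 0.0391).

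Cxcl10 (ENSMUSG00000034855.13, chr5:92346638-92348889, - strand), a chemokine for T cells induced by interferon and NF-kB, was the lowest tested member, with 4 to 46 reads per library, so its values are the least precise. Basal Control libraries were at 6.24, 9.502, 7.44 and 6.96 CPM, FoxK1 KD at 4.98, 7.59, 3.999 and 4.01, FoxK2 KD at 8.64, 8.24, 9.94 and 9.67 and DKD at 3.16, 4.36, 3.702 and 4.88. Only the DKD libraries lay below all Control libraries, and the fall in DKD was -0.88 ± 0.23, adjusted p = 0.00582, against -0.58 ± 0.21 (SE, adjusted p = 0.0841) in FoxK1 KD cells. After insulin the libraries were at 5.27, 4.11 and 4.72 CPM in Control, 1.48, 2.99, 2.96 and 3.71 in FoxK1 KD, 4.41, 4.68, 6.07 and 4.41 in FoxK2 KD and 4.63, 3.87 and 2.43 in DKD cells. In all genotypes but DKD these lay below every basal library of the same genotype. Cxcl10 fell with insulin in FoxK2 KD (-0.91 ± 0.21, adjusted p = 0.00135), FoxK1 KD (-0.85 ± 0.29, adjusted p = 0.0227) and Control cells (-0.67 ± 0.24, adjusted p = 0.0391). The Control call was lost in 5 of 7 fits without 1 library (adjusted p up to 0.145, without Control insulin replicate 2). It was also lost with limma-voom, the replicate block, no filter, DESeq2 and only the groups compared, with adjusted p from 0.0521 to 0.120. The FoxK1 KD call was lost without FoxK1 KD basal replicate 2 (adjusted p = 0.115) or insulin replicate 1 (adjusted p = 0.124), with DESeq2 (adjusted p = 0.0590) and with no filter (adjusted p = 0.0555).

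Nfkbia (ENSMUSG00000021025.7, chr12:55489410-55492647, - strand) encodes IkB alpha, the inhibitor that NF-kB itself induces and that returns it to the cytoplasm. Basal libraries were at 59.3, 62.3, 64.01 and 68.6 CPM in Control, 54.8, 54.8, 50.8 and 48.97 in FoxK1 KD, 59.3, 66.6, 74.1 and 70.3 in FoxK2 KD and 75.8, 75.3, 65.7 and 64.7 in DKD cells. FoxK1 KD libraries lay below all Control libraries, with a difference of -0.28 ± 0.10 (SE, adjusted p = 0.0712), and no knockdown was called. After insulin, libraries were at 49.6, 41.7 and 50.9 CPM in Control, 42.1, 50.4, 44.5 and 57.9 in FoxK1 KD, 40.1, 54.5, 47.6 and 45.7 in FoxK2 KD and 49.03, 44.1 and 51.3 in DKD cells, with group means between 47.0 and 48.7. In Control, FoxK2 KD and DKD cells every insulin library was below every basal one, and in FoxK1 KD cells they overlapped. Nfkbia fell with insulin in Control (-0.42 ± 0.11, adjusted p = 0.00441), FoxK2 KD (-0.53 ± 0.10, adjusted p = 1.36e-04) and DKD cells (-0.54 ± 0.11, adjusted p = 7.00e-04), and the FoxK1 KD change was -0.10 ± 0.11 (SE, adjusted p = 0.506). With trends in GC content and length taken out, the FoxK1 KD change was -0.29 (adjusted p = 0.0350) and was called. The difference of the FoxK1 KD effect from that in Control was 0.32 ± 0.15 (SE, adjusted p = 0.360). The DKD comparison lies within 1 set of libraries and kept its call in all 7 fits without 1 library. The Control call was lost without Control insulin replicate 2 (adjusted p = 0.0557) and in a fit of these groups alone (adjusted p = 0.0566).

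Tnfaip3 (ENSMUSG00000019850.11, chr10:19000910-19015657, - strand) encodes A20, a ubiquitin-editing enzyme that shuts off signalling to the IkB kinase. Its basal group means lay between 156 and 166 CPM and no knockdown effect was called. With insulin in DKD cells its libraries went from 161, 166, 155 and 154 CPM to 122, 129 and 126, without overlap, a fall of -0.34 ± 0.09, adjusted p = 0.00535 that was kept in all 7 fits without 1 library. In FoxK2 KD cells they went from 167, 152, 155 and 149.7 to 136, 121, 135 and 144, also without overlap (-0.22 ± 0.08, adjusted p = 0.0322). In FoxK1 KD cells they went from 152, 155, 177 and 163 to 153, 139, 129 and 132, with overlap (-0.23 ± 0.08, adjusted p = 0.0272), and in Control the change was -0.19 ± 0.08 (SE, adjusted p = 0.103). The calls in FoxK2 KD and FoxK1 KD cells were lost in 5 and in 3 of 8 fits without 1 library, with adjusted p of up to 0.124 (without FoxK2 KD insulin replicate 2) and 0.0899 (without FoxK1 KD basal replicate 3). Both were lost with no filter (adjusted p = 0.0896 and 0.0604), and the FoxK1 KD call also with the GC correction (adjusted p = 0.0937), under which the Control change was called (-0.21, adjusted p = 0.0497). The Control change was also called without Control basal replicate 4 or insulin replicate 1. The interval of the DKD minus Control difference ran from -0.40 to 0.09.

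Lcn2 (ENSMUSG00000026822.14, chr2:32384633-32388252, - strand), lipocalin 2, rose with the FoxK2 knockdown alone and with the knockdown of both factors. Basal Control libraries were at 32.6, 10.5, 14.9 and 24.3 CPM and FoxK1 KD libraries at 25.6, 12.9, 24.2 and 29.97. FoxK2 KD libraries were at 38.6, 50.1, 42.4 and 39.1 and DKD libraries at 65.5, 46.2, 63.9 and 53.1. The Control libraries were widely spread, and all FoxK2 KD and DKD libraries lay above the highest of them. The difference was 1.05 ± 0.22, adjusted p = 0.0214 in FoxK2 KD, 1.47 ± 0.22, adjusted p = 1.19e-05 in DKD and 0.20 ± 0.23 (SE, adjusted p = 0.656) in FoxK1 KD cells. The DKD call was kept in all 8 fits without 1 library. The FoxK2 KD call was lost without Control basal replicate 2 (log2 0.84, adjusted p = 0.0576), FoxK2 KD basal replicate 2 (adjusted p = 0.0815) or replicate 3 (adjusted p = 0.0640), and in a fit of these groups alone (adjusted p = 0.453).

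After insulin, Lcn2 libraries were at 21.4, 28.4 and 23.6 CPM in Control, 36.9, 29.1, 33.02 and 58.3 in FoxK1 KD, 60.2, 44.01, 51.9 and 46.6 in FoxK2 KD and 39.5, 51.1 and 42.4 in DKD cells. Every knockdown library lay above every Control library. No difference was called, at 0.70 ± 0.25 (SE, adjusted p = 0.123) in FoxK1 KD, 1.06 ± 0.24 (SE, adjusted p = 0.0880) in FoxK2 KD and 0.85 ± 0.26 (SE, adjusted p = 0.0984) in DKD cells. All 3 were called with no filter beyond 1 count (adjusted p = 0.00167, 1.09e-09 and 4.48e-05), and those of FoxK2 KD and DKD cells in fits of the groups compared alone (adjusted p = 0.00480 and 0.0302). With insulin, Lcn2 rose in FoxK1 KD cells (0.75 ± 0.23, adjusted p = 0.0122), a call lost without FoxK1 KD basal replicate 2 (log2 0.56, adjusted p = 0.0625) or insulin replicate 4 (log2 0.49, adjusted p = 0.129). In Control it was 0.25 ± 0.26 (SE, adjusted p = 0.526) and in DKD cells -0.37 ± 0.22 (SE, adjusted p = 0.259), the latter called in a fit of these groups alone (adjusted p = 0.0388).

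Il6 (ENSMUSG00000025746.11, chr5:30013114-30019981, + strand), the cytokine that drives the hepatic acute-phase response, had 1 read, in FoxK1 KD basal replicate 2, and 0 in the other 29 libraries. A count of 0 allows up to 3 counts, which is 0.536 to 1.39 CPM depending on the library, so a lower level was not detectable at this depth. Intervals and limits of this kind cover counting error only.

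After insulin the knockdowns differed from Control in few members. FoxK1 KD had 0 members higher and 2 lower (Vcam1 and Cxcl1), with 3.59% of all genes called. For FoxK2 KD 0 members were called by edgeR, 0 by DESeq2 and 0 by limma-voom, with 0.0264% of all genes called by edgeR. For DKD 0 were called by edgeR and 0 by limma-voom but 1 (Cxcl1) by DESeq2, with 1.21% of all genes called by edgeR. At an unadjusted p below 0.05 by edgeR there were 1 member (Lcn2) for FoxK2 KD and 4 for DKD. The share of all genes below that unadjusted p was not counted. The unadjusted counts in this paragraph therefore have no background beside them. For the difference in insulin effect, 0 members were called for FoxK1 KD by any of these tools, with Vcam1 and Nfkbia below an unadjusted p of 0.05, and 0 for FoxK2 KD, with none below it.

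The other genes of the pathway were followed as 8 lists of 125 genes, 80 of them tested. In FoxK1 KD cells at basal, 3 of these 80 were higher and 7 lower, where 8.09% of all genes were called. Of the NF-kB subunits 3 of 5 were lower (list median -0.43 against -0.01 for all genes), among them Relb (-0.65 ± 0.12, adjusted p = 9.82e-04) and Rela, the p65 subunit (-0.46 ± 0.11, adjusted p = 0.00878). No gene of the 11 tested inhibitors was called. Of 7 tested chemokines outside the members, the CCR6 ligand Ccl20 fell (-0.43 ± 0.11, adjusted p = 0.0159), and among cytokines the alarmin Il33 fell (-0.48 ± 0.10, adjusted p = 0.00336) and Il11 rose (0.74 ± 0.18, adjusted p = 0.00878).

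In FoxK2 KD cells 3 of the 80 were higher and 0 lower, or 3.75% against 0.378% of all genes. The complement component C3 (0.97 ± 0.15, adjusted p = 9.38e-04) and the acute-phase protein Saa3 (0.91 ± 0.19, adjusted p = 0.0224) rose together with Lcn2, and so did the interleukin 1 receptor Il1r1 (0.54 ± 0.13, adjusted p = 0.0413). In basal DKD cells 14 were higher and 8 lower, or 27.5% against 21.1%. C3 (1.02 ± 0.15, adjusted p = 1.55e-05) and Saa3 (0.88 ± 0.20, adjusted p = 0.00163) rose, and 4 of the 10 tested acute-phase genes were higher and 0 lower. The A20-binding inhibitor Tnip1 rose (0.89 ± 0.09, adjusted p = 2.86e-08), the neutrophil chemokine Cxcl5 fell (-0.67 ± 0.11, adjusted p = 6.84e-05), as did the junctional adhesion molecule Jam2 (-0.90 ± 0.21, adjusted p = 0.00229). After insulin C3 and Saa3 were still above Control in DKD cells (log2 0.96 and 1.28), in a comparison within 1 set of libraries. Against Control after insulin, 2 of the 80 were higher and 6 lower in FoxK1 KD cells, or 10% against 3.59% of all genes. None of the 80 was called in FoxK2 KD cells, against 0.0264% of all genes. In DKD cells 3 were higher and 1 lower, or 5% against 1.21%. The basal DKD differences of these lists cannot be told apart from the set of libraries.

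With insulin, 9 of the 80 were higher and 11 lower in Control, 14 and 8 in FoxK1 KD, 15 and 9 in FoxK2 KD, and 10 and 10 in DKD cells. The shares called were 25%, 27.5%, 30% and 25%, near the 25.4%, 31.6% and 28.1% of all genes in the first 3 and above the 16.3% in DKD cells. The lists did not move one way. In Control cells Relb (-0.42 ± 0.13, adjusted p = 0.0197) and Rela (-0.36 ± 0.12, adjusted p = 0.0230) fell, the macrophage growth factor Csf1 fell (-0.45 ± 0.08, adjusted p = 7.68e-05), and Il1r1 (0.90 ± 0.14, adjusted p = 5.74e-06) and the neutrophil chemokine Cxcl3 (0.64 ± 0.13, adjusted p = 4.03e-04) rose. In DKD cells, alongside Nfkbia and Tnfaip3, 4 of the 11 tested inhibitors were lower and 1 higher, with Tnip1 (-0.64 ± 0.10, adjusted p = 2.53e-05) and the IkB protein Nfkbie (-0.50 ± 0.13, adjusted p = 0.00628) falling and Bcl3 rising (0.55 ± 0.16, adjusted p = 0.0165). Relb (-0.49 ± 0.13, adjusted p = 0.00878) and Nfkb2 (-0.40 ± 0.10, adjusted p = 0.00400) fell, Csf1 (-0.57 ± 0.08, adjusted p = 4.88e-06) and Ccl20 (-0.58 ± 0.13, adjusted p = 0.00135) fell, and Cxcl3 rose (0.86 ± 0.14, adjusted p = 3.56e-05). Among the 80, the interaction for DKD called Tnip1 alone (-0.61 ± 0.15, adjusted p = 0.0241).

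**Figure D5:**
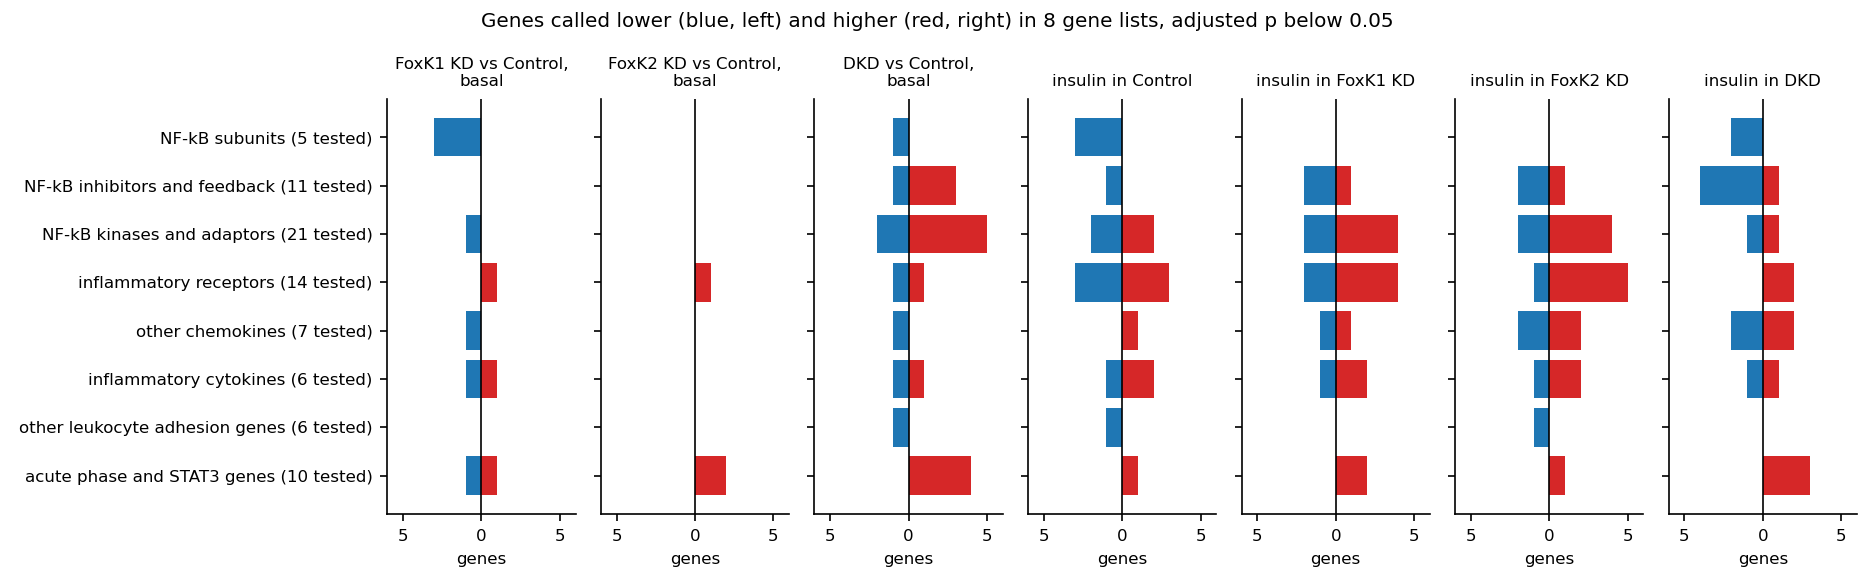
Number of genes called lower (blue, to the left) and higher (red, to the right) in each of the 8 lists, with 1 panel per comparison and the number tested beside each list name. The NF-kB subunits have 3 genes lower in basal FoxK1 KD cells, and the acute-phase list has genes higher and none lower in basal FoxK2 KD and DKD cells.

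Over the 8 group means of log2-CPM, Vcam1 and Cxcl10 followed each other most closely among the members (Pearson r = 0.914), then Ccl2 and Cxcl10 (0.849), Nfkbia and Tnfaip3 (0.747) and Icam1 and Lcn2 (0.710). Ccl7 and Cxcl1 were the least alike (-0.643), and Ccl2 and Lcn2 ran opposite (-0.520). The genes most like each member were sought among tested genes with a mean log2-CPM of 1 or more. Those most like Vcam1 were Sfxn4 (0.968) and Tgoln1 (0.966), those most like Ccl2 were Psma1 (0.994) and Pstk (0.989), and those most like Lcn2 were Ctbp2 (0.990) and Gm28809 (0.970). For Cxcl1 they were Qsox2 (0.961) and Melk (0.957), for Cxcl10 Abi2 (0.983) and Hoxb4 (0.9754), and for Icam1 Rpl23 (0.953) and Fau (0.950). For Nfkbia they were Ifnar2 (0.987) and Cct2 (0.982), for Tnfaip3 Eif3a (0.982) and Klhdc1 (0.976), and for Ccl7 Orc3 (0.921) and Anapc10 (0.917). All points of these correlations come from the same 30 libraries and the 8 groups include the 2 sets of libraries, so the values describe the pattern over groups only.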

How the data were processed

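RNA of 30 AML12 libraries was counted on genes, and the authors deposited raw counts per Ensembl gene without normalization. The submitters' processing notes name CASAVA 1.8, STAR 2.4.2a, featureCounts and GRCm38.p4. The strand setting and the annotation release are not given in the sources used here. Groups came from the sample labels. Symbols and positions came from GENCODE M21 (GRCm38), which held 48349 of 49089 identifiers. Per library, 2141460 to 5668270 counts were assigned, so Cxcl10, with 4 to 46 reads, was the least precise tested member.

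Counts were filtered with filterByExpr, normalized by TMM and fitted in 1 model of 8 groups with edgeR 4.0.16 (glmQLFit, glmQLFTest, R 4.3.3), with Benjamini-Hochberg adjustment over 11368 genes and calls at an adjusted p below 0.05. SE was derived from the log2 fold change and its F statistic. The fit was tested on simulated data. Pairs of replicates were checked for copies, and over 42 pairs the lowest ratio of chi-square to degrees of freedom was 1.75. Nothing states that replicates were separate cultures, so p-values measure the spread between these samples, which may be technical.

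The named genes were all members, Foxk1 and Foxk2, up to 2 genes higher and 2 lower with the largest log2 change per list and comparison among called genes whose mean log2-CPM was 1 or more, and the 2 genes most like each member over the group means. From the lists, a selection of those genes is printed. Genes most like a member were also sought only among tested genes with a mean log2-CPM of 1 or more. The members and lists were chosen with earlier results of these data known. Alternatives were DESeq2 1.42.0, limma-voom (limma 3.58.1), RLE size factors, 2 other filters on low counts, only the groups compared, a replicate block, other thresholds and leaving out each library, plus a correction of GC content and length trends that was chosen after seeing the data. Promoters came from RefSeq (GRCm38.p6) and were searched with Python 3.11.15.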

Additional observations from a re-analysis of the deposited data

Results flagged for a closer look

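In each group of 4 libraries, the gap between the most extreme library and its neighbour was compared with the range of the group (Dixon's test at 95%) for the 9 tested members. The test marked 3 of 54 sets of libraries, and chance alone marks about 1 in 20. Vcam1 stood at 351 CPM in Control basal replicate 1 against 271 to 282 CPM in the other 3 libraries. Icam1 stood at 128 CPM in FoxK2 KD basal replicate 1 against 111 to 113 CPM in the others. Cxcl10 stood at 6.07 CPM in FoxK2 KD insulin replicate 3 against 4.41 to 4.68 CPM in the others.

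The insulin effect differed between DKD and Control cells by the interaction test for Vcam1 and Ccl2. The DKD effect minus the Control effect was 0.68 on the log2 scale for Vcam1 and 0.89 for Ccl2. For both genes, the basal DKD libraries and all insulin libraries belong to the same set of 18, which cannot be told apart from the treatment.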

How the results depend on the processing

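There were 29 calls of members over all comparisons. Of these, 19 were lost in no fit without 1 library and under no other test, normalization, filter or model, 5 of the 19 were lost when a change above 1.5-fold was asked for, and 14 were lost nowhere. Of the fits of called members, 200 of 236 kept the call when 1 library was left out, 212 of 232 under another test, normalization, filter or model, and 39 of 58 under another threshold. The cause of the changes was not tested. Depth limits Cxcl10 and Il6 most, and the lone low counts of Il6 allow no test.

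The number of members called changed as follows. The shares of all genes given above hold for the main fit at an adjusted p below 0.05. They are not given for these settings or for fits without 1 library, so these counts have no background beside them. At an adjusted p below 0.25 (insulin effects also above 1.5-fold) it was 4 in basal FoxK1 KD, 0 for insulin in DKD, 2 in FoxK2 KD, and 3 each in FoxK1 KD and Control, and 4, 1 and 2 for FoxK1 KD, FoxK2 KD and DKD against Control after insulin. With an adjusted p below 0.05 and a change above 1.5-fold it was 4 in basal DKD, the same numbers for those 4 insulin effects and 1 for FoxK1 KD after insulin. In fits of only the groups compared it was 0 in basal FoxK2 KD, 5 in basal DKD, 2 for insulin in Control, 3 for insulin in DKD, and 1 each for FoxK2 KD and DKD after insulin. With DESeq2 it was 3 for insulin in Control, 3 for insulin in FoxK1 KD and 1 for DKD after insulin. Without the filter it was 3, 2 and 4 for insulin in Control, FoxK1 KD and FoxK2 KD, 3 for FoxK1 KD, 1 for FoxK2 KD and 2 for DKD after insulin. With limma-voom it was 3 for insulin in Control, 4 for insulin in FoxK1 KD and 1 for FoxK1 KD after insulin. With the trend of GC content and length taken out, a mean count of at least 10, or RLE size factors, it was 1 for DKD after insulin. The first of these also gave 5 for insulin in Control, and the insulin change of Vcam1 in FoxK1 KD cells was 0.00075 under it, in place of -0.21.

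Leaving out 1 library gave 2 to 3 members called in basal FoxK1 KD, 0 to 1 in FoxK2 KD and 5 to 6 in DKD, 2 to 5 for insulin in Control (2 without Control insulin replicate 2), 2 to 5 in FoxK1 KD, 4 to 5 in FoxK2 KD and 2 to 3 in DKD, 1 for FoxK1 KD after insulin, 0 to 1 for DKD after insulin (1 without Control insulin replicate 1 or DKD insulin replicate 3) and 2 for the DKD interaction.

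Replicate numbers are shared between groups, but the correlations of same-numbered libraries over 35 pairs were -0.21 to 0.12 and exceeded 0.1 in 2, so they were not treated as pairs. With the replicate block, 3 members were called for insulin in Control, 4 in FoxK1 KD and 3 in DKD, and after insulin 1 for FoxK1 KD and 1 for DKD against Control. It changed the count in no other comparison.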

Other observations

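Interferon-stimulated genes, to which Cxcl10 is also often counted, were followed as a further list. Of 12 tested genes, 1 was higher and 4 lower after insulin in Control, 1 and 4 in FoxK1 KD, 1 and 3 in FoxK2 KD, and 1 and 3 in DKD cells. In the same order, 25.4%, 31.6%, 28.1% and 16.3% of all genes were called. Ifit3b fell by 3.13 and Ifit3 by 2.55 on the log2 scale in Control, and by 2.58 and 2.14 in DKD cells, where the comparison lies within 1 set of libraries (adjusted p at most 2.83e-11 by edgeR in all 4). These are near-identical genes, so the counting may have split or shared their reads. After insulin both stood higher in FoxK1 KD than in Control cells, Ifit3 by 1.34 ± 0.22 (adjusted p = 2.64e-04) and Ifit3b by 1.32 ± 0.24 (adjusted p = 8.93e-04) on the log2 scale, while the Cxcl10 difference there was -0.76 ± 0.31 (adjusted p = 0.189).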
